A study of Mus musculus with 5 samples.

Results

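Ubiquitin-conjugating (E2) enzymes stand in the middle of the cascade that attaches ubiquitin to proteins. An E1 enzyme activates ubiquitin and passes it to the catalytic cysteine of an E2, and an E3 ligase then brings the loaded E2 to its substrate, so that the E2 has a large say in the kind of chain that is built. A few E2 enzymes carry the related modifiers SUMO, NEDD8 or ISG15 instead. In dividing cells E2 enzymes of the anaphase-promoting complex (APC/C) time the destruction of cyclins, and those of the RAD6, UBE2N and UBE2T types act at damaged DNA. The genes described here are all those with a symbol that starts with *Ube2* and at least 1 probe set assigned to that gene alone. This gave 33 probe sets and 32 genes, of 17325 genes in all, with the brighter probe set taken where a gene had more than 1. Of the 32 genes, 31 are annotated as protein-coding in RefSeq. *Ube2d-ps* is a pseudogene annotated as a long non-coding RNA, and *Ube2cbp*, also known as *Ube3d*, encodes an E3 ligase that binds UBE2C rather than an E2 enzyme.

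The RNA came from pro-B cells (B220+IgM-CD43+CD24+) that were isolated by FACS from bone marrow of mice 9 months of age, and the question was which genes depend on the transcription factor MEF2C at this stage. There were 2 arrays of Vav-Cre *Mef2c* fl/fl mice, called *Mef2c*-deficient here, and 3 arrays of control mice. Vav-Cre is active in all blood cell lineages, so the deletion was not limited to B cells. The controls of the study could carry the floxed allele on both chromosomes or singly without Cre, or Vav-Cre with a single floxed allele, and the sources used here do not say which of these each control array came from. The sources call the samples independent but do not give the animals behind each array, so p-values measure the spread between these arrays. *Mef2c* itself had deposited values of 7379 and 6219 on the *Mef2c*-deficient arrays, against 14006, 20854 and 17219.7 on the control arrays (log2 fold change -1.34, standard error 0.29, limma adjusted p = 0.0918). It stayed negative in all 16 other settings but lost its call in 5, at -0.43 when quantile normalization was repeated, -0.32 with cyclic loess, -0.59 with centring on housekeeping genes and -1.25 with array weights, and where a 2-fold signal difference was required.

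The deposited intensities are linear, but their range fits the base of natural logarithms raised to the log2 signal, on which reading a deposited fold of 2 corresponds to a 1.62-fold signal difference. Folds here refer to deposited values, and those in signal are named as such. Calls of lower or higher used the numeric cutoffs of the study (2-fold, with p before adjustment no larger than 0.05). The fold was applied here to deposited values, with p taken from a limma fit to all 17325 genes. By this rule 16.7% of all genes were lower and 9.65% were higher in *Mef2c*-deficient pro-B cells. Brightness mattered. With all genes split into 10 groups by mean value, the median log2 fold change was 0.62 in the dimmest group, -1.10 in the group below the brightest and -0.91 in the brightest. *Mef2c*-deficient replicate 2 stood apart in cell type markers, and control replicate 3 differed from the other controls in some of them. The summed value of 13 T and NK cell markers was 4441 on *Mef2c*-deficient replicate 1 and 60057 on replicate 2, against 6153 to 7387 on the control arrays, and 9 of the 13 were above the mean of the other arrays on replicate 2. None of the 13 was below the lower quartile of every array. The sum of 5 erythroid markers was 1534 and 5120 on the *Mef2c*-deficient arrays, against 806 to 929.9 on the control arrays. Of 12 myeloid markers 8, and of 7 plasmacytoid dendritic cell markers 6, were above the mean of the other arrays on replicate 2, with sums of 2502430 and 5715940 on the *Mef2c*-deficient arrays against 2323780 to 4843550 in control for the myeloid list, and of 259584 and 163002 against 88788 to 323061 for the other. Of 11 B-lineage markers, 10 were below the mean of the other arrays on replicate 2. Among them *Ebf1* was at 3026 there and 29295 on replicate 1, against 29295 to 35416 in control. *Rag1* and *Dntt*, also among the 10, were at 21023 and 35539 on replicate 2, above control replicates 1 and 2 but below control replicate 3. *Cd79a*, a subunit of the B-cell receptor, was at 231011 and 250654 on the *Mef2c*-deficient arrays, against 153021 to 257531 in control. On control replicate 3 the myeloid sum was 2323780, against 4479620 and 4843550 on control replicates 1 and 2. *Mpo* was at 7065 there, against 53988 and 100134. *Rag1* was at 140899, against 19797 and 13317, and *Dntt* at 127098, against 33157 and 8488, while *Ebf1* differed little between the controls. In bulk RNA fewer cells of a type and less RNA per cell cannot be told apart. Spiked bacterial transcripts, meant to be equal on every array, deviated by a median of 1.97 on the log2 scale on *Mef2c*-deficient replicate 1, 0.12 on replicate 2 and -1.58 to -0.049 on the control arrays. The part of these differences in the results below was not tested.

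In *Mef2c*-deficient pro-B cells 9 of the 32 E2 genes were lower, none was higher and 23 did not pass. Those that fell were *Ube2v1*, *Ube2z*, *Ube2f*, *Ube2d2a*, *Ube2q2*, *Ube2o*, *Ube2q1*, *Ube2t* and *Ube2g2*. They made up 28.1% of the E2 genes, against 16.7% of all genes. Where a 2-fold signal difference was required, 4 of the 32 E2 genes were lower, against 10.6% of all genes. A negative log2 fold change was found in 29 of 32 genes, where 48.7% of all genes had one, and the median was -0.9996, against 0.04 over all genes. In 21 E2 genes the *Mef2c*-deficient pair lay under every control, where 28.4% of all genes were so, and above all of them in 2, where 25.9% were. After Benjamini-Hochberg adjustment limma left 0 of 32 E2 genes under 0.05, and 0 of 17325 genes, and 5 E2 genes under 0.10, against 12% of all genes. Before adjustment 12 E2 genes were at or under 0.05, all with a negative log2 fold change, against 32.3% of all genes and 19% in that direction. Run on the same values, an unpaired test of each gene alone put 0 of the 32 under 0.05 once adjusted.

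Most E2 probe sets were bright, and the share of them that was lower was near that of genes of like brightness, or under it. Of the 28 E2 genes at or above the array median on average, 8 were lower, where 27.4% of the 9854 genes of that range were, and their median log2 fold change was -1.02, against -0.77 over that range. In the 2 brightest of the 10 groups 3 of 16 E2 genes were lower, where 36.9% of genes were. All 16 had a negative log2 fold change, as 91.2% of genes there did, with a median of -0.94 against -1.01. The *Mef2c*-deficient pair lay under every control in 11 of the 16, where 64% of genes did, and in 19 of the 28, where 45.9% did. A negative log2 fold change was found in 27 of the 28, against 72.2%, and 0 of the 28 were higher, against 4.4%. Rescaling changed these counts. Quantile normalization applied once more gave 8 E2 genes lower and 1 higher, cyclic loess gave 6 and 1, centring on array medians gave 17 and 0, and centring on 10 housekeeping genes gave 1 and 2. Of these 10 housekeeping genes 5 were themselves lower as reported, against 16.7% of all genes, and 8 had a negative log2 fold change. Their median was -0.98, near that of the E2 genes. All but *Gusb* were in the 2 brightest of the 10 groups, where 36.9% of genes were lower and the median was -1.01. Whether these 10 genes are steady between the groups was not tested. Housekeeping centring moved the all-gene median by 0.75 on the log2 scale and centring on array medians by -0.23, and the E2 median was then -0.25 and -1.23. Renewed quantile normalization put it at -0.41 and cyclic loess at -0.28, where 24 and 20 E2 genes had a negative log2 fold change. The number lower was 13 without *Mef2c*-deficient replicate 1, and 5 without control replicate 3 or with the unpaired test of each gene alone.

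**Figure D1:**
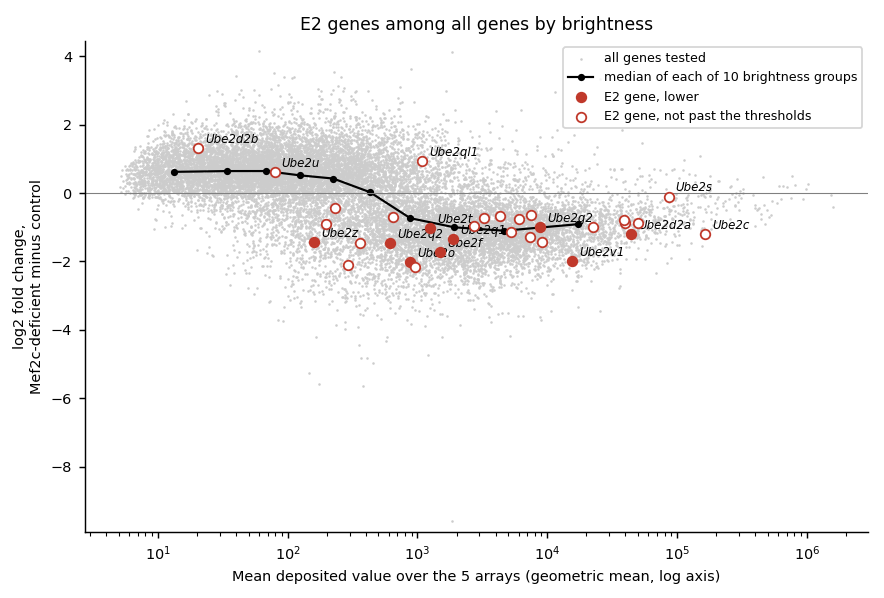
Log2 fold change of the deposited value, Mef2c-deficient minus control (vertical axis), against the mean deposited value over the 5 arrays (horizontal log axis). Grey points are all 17325 genes, the black line joins the medians of the 10 brightness groups, and red points are the 32 E2 genes, filled where lower. The E2 genes lie mostly among bright genes, where the median line is below 0, while *Ube2s* lies near 0 and *Ube2ql1*, *Ube2u* and *Ube2d2b* lie above 0.

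Promoter sequence from RefSeq (build GRCm38.p6, 250 bases before to 50 after the first listed start of each gene) was searched for 26 of the 32 E2 genes, with 4 motifs on both strands. A MEF2 consensus site was found in 0 of the 26, where 3.26% of 27025 promoters held one. The CCAAT box (CCAAT), bound by NF-Y, was in 7 of 26, against 37.9% of all promoters. The cell cycle homology region (CHR, TTTGAA), known from genes that peak in mitosis, was in 4 of 26, against 18.1%. The GC box (GGGCGG), bound by SP1 and related factors, was in 19 of 26, against 35.9%. These matches are of letters only, within this window. The 27025 promoters include genes that were not tested here and were not matched to the E2 genes in kind or brightness. *Ube2v1* and *Ube2f* are shown because each lost its call in only 1 of 16 settings, and *Ube2c* because it is among the 2 cell cycle genes, neither of which passed. Matched motifs are in capitals, and each sequence runs 5′ to 3′ on the strand of the gene.
Ube2v1 (chr2:167631956-167632255, minus strand, GC boxes only): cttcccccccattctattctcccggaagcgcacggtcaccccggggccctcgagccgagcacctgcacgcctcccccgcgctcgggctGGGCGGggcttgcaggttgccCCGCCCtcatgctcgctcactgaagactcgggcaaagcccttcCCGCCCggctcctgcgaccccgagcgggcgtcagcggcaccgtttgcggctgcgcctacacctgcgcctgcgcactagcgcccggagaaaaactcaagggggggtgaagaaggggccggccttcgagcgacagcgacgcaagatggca
Ube2f (chr1:91250054-91250353, plus strand, CCAAT boxes, a CHR and a GC box): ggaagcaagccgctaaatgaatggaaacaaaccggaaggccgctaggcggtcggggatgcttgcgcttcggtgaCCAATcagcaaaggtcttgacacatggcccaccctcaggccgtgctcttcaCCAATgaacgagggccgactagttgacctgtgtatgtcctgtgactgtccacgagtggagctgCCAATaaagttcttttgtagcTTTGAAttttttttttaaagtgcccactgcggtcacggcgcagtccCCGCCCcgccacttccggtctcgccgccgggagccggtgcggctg
Ube2c (chr2:164769679-164769978, plus strand, CCAAT boxes on either strand, of which 2 overlap as CCAATTGG, a CHR on the minus strand and a GC box): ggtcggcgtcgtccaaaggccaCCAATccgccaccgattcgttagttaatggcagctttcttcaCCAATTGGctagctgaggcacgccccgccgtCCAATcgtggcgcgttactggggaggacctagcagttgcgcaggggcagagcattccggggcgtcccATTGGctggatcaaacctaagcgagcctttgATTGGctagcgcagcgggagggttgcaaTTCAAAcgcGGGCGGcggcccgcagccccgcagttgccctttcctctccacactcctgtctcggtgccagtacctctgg
Of the 6 lower genes searched, 2 held a CCAAT box (*Ube2f* and *Ube2t*), 2 a CHR (*Ube2f* and *Ube2z*) and 5 a GC box. *Ube2s*, the other cell cycle gene, held GC boxes only.

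Every E2 gene of the DNA damage response had lower values on both *Mef2c*-deficient arrays, though few passed. Of 7 genes, 2 were lower, none was higher and 5 did not pass, and the *Mef2c*-deficient pair lay under every control in 7 of 7. Of these, 6 were in the 2 brightest of the 10 groups, where 64% of genes lay so and 36.9% were lower. Their median log2 fold change was -0.88. *Ube2v1* encodes a variant without a catalytic cysteine that pairs with UBE2N, the E2 that builds non-degradative chains in NF-kB signalling and at DNA breaks. It had deposited values of 9565 and 4721 in *Mef2c*-deficient and 27625, 29199.5 and 23899.5 in control pro-B cells. The *Mef2c*-deficient values were far below every control value, a fall of 3.99-fold or 2.61-fold in signal (log2 fold change -1.996, standard error 0.38, limma adjusted p = 0.0897), and the call was lost only after cyclic loess (-0.99), among 16 settings. *Ube2n*, the catalytic partner, had 31821 and 25307 in *Mef2c*-deficient, against 50132, 54626 and 41923 in control cells. Its log2 fold change of -0.78 (standard error 0.27, limma adjusted p = 0.134) did not reach a fold of 2, and it was positive after cyclic loess (0.16). *Ube2v2*, the other variant partner, which acts with UBE2N in DNA damage tolerance, was at 5492 and 5945, against 10879, 9240.0 and 7032. It did not pass at -0.64 (standard error 0.29), and its sign turned with renewed quantile normalization (0.29), cyclic loess (0.38) and housekeeping centring (0.10). The difference in response between *Ube2v1* and its partners was not tested.

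*Ube2t*, the E2 of the Fanconi anaemia pathway that modifies FANCD2 and FANCI with the ligase FANCL, had 1072 and 611 in *Mef2c*-deficient and 1881, 1237 and 1931 in control pro-B cells. The groups did not overlap but lay close, and it passed narrowly (log2 fold change -1.03, standard error 0.39, limma adjusted p = 0.147). The call was lost when *Mef2c*-deficient replicate 2 or control replicates 1 or 3 were left out in turn, with log2 fold changes of -0.62, -0.93 and -0.91, and it held under 3 of 16 settings. Its second probe set gave 456 and 285 in *Mef2c*-deficient, against 535, 476 and 533 in control cells, and did not pass at -0.51. *Ube2a* and *Ube2b* encode the 2 mammalian forms of RAD6, which modify PCNA with RAD18 and histone H2B with RNF20. *Ube2a* had 40211 and 18819 in *Mef2c*-deficient, against 51290.3, 54746 and 45930.1 in control cells, and *Mef2c*-deficient replicate 2 was by far the lowest array. *Ube2b* had 7927 and 2353, against 10902, 8685 and 12669.8, with the same array lowest. Neither passed, at log2 fold changes of -0.88 and -1.30 (standard errors 0.39 and 0.57), but both did without *Mef2c*-deficient replicate 1 (-1.42 and -2.17), a result that rests on replicate 2 alone, and *Ube2a* was at 0.055 after cyclic loess. *Ube2w*, which attaches ubiquitin to the amino terminus of proteins, was at 1659.8 and 3491 in *Mef2c*-deficient and 4618, 3818 and 3522 in control cells. Here replicate 1 was the low array and replicate 2 lay just under the controls. It did not pass at -0.72, passed without *Mef2c*-deficient replicate 2 (-1.25), and turned positive under 3 rescalings (renewed quantile normalization, cyclic loess, housekeeping centring).

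**Figure D2:**
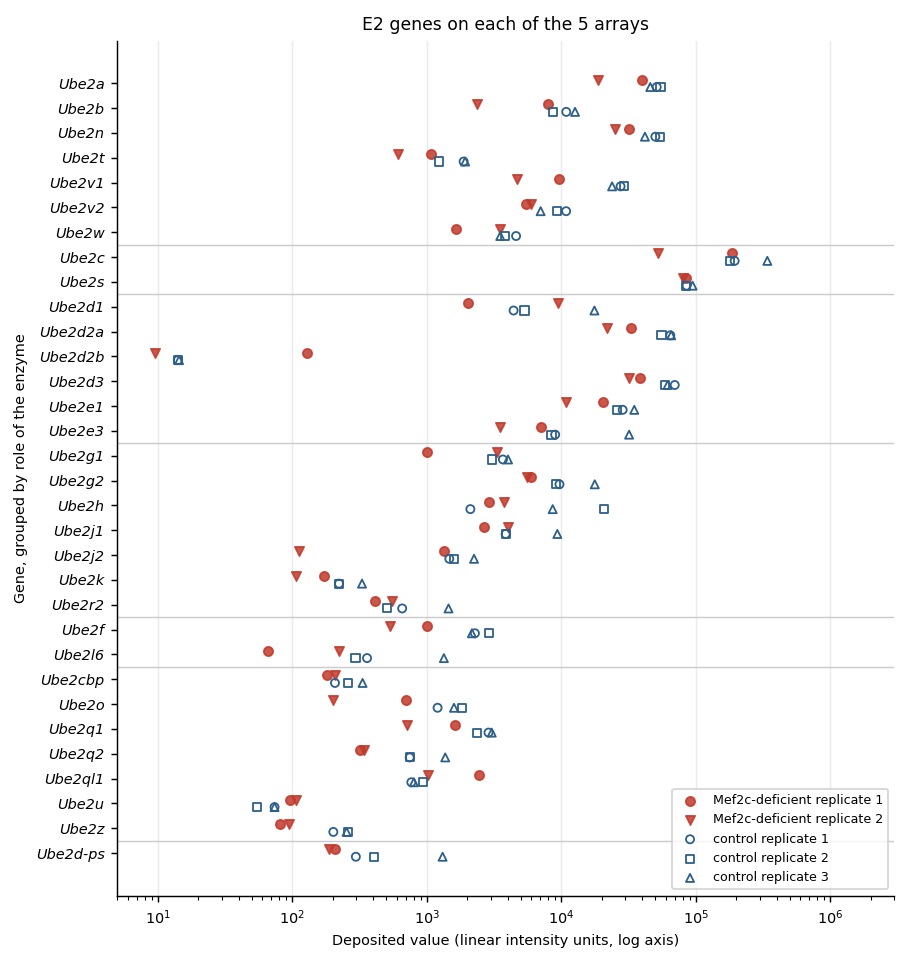
Deposited values of the 32 E2 genes (rows, grouped by role, with grey lines between groups) on a horizontal log axis. Filled red symbols are the 2 Mef2c-deficient arrays and open blue symbols the 3 control arrays. In the top group, DNA damage, both red symbols lie left of all blue ones in each of 7 genes, while in *Ube2s* the 5 arrays nearly coincide.

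The 2 E2 genes of the APC/C did not pass, and *Ube2s* was the E2 gene with the smallest log2 fold change in size. *Ube2c*, which starts the ubiquitin chains on mitotic cyclins, had 187022 and 52586 in *Mef2c*-deficient and 194690.0, 179277 and 340760.0 in control pro-B cells. Replicate 1 of the *Mef2c*-deficient arrays lay between control replicates 2 and 1, and only replicate 2 was below all controls. The log2 fold change was -1.20 (standard error 0.64, limma adjusted p = 0.234), and it passed without *Mef2c*-deficient replicate 1 at -2.12. *Ube2s*, which extends those chains, had 84726 and 80012 in *Mef2c*-deficient, against 85597, 84726 and 94762 in control cells. *Mef2c*-deficient replicate 1 and control replicate 2 had the same value, as they did in 970 of 17325 genes. The log2 fold change was -0.10 with a 95% confidence interval of -0.70 to 0.50. Its sign turned with the scaling, being 0.34 with renewed quantile normalization, 0.75 with cyclic loess and 0.65 when centred on housekeeping genes. The probe set of *Ube2s*, like that of *Ube2k*, is of the kind that other transcripts can share, so its value may not be that of 1 gene.

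Among the UBCH5 and UBE2E enzymes, which work with a wide range of E3 ligases, 1 of 6 genes was lower. The share was 16.7% over all genes and 36.9% in the 2 brightest of the 10 groups, which held all but *Ube2d2b*. *Ube2d2a* had 33293 and 21814 in *Mef2c*-deficient, against 64722, 55650.1 and 65731 in control pro-B cells. The groups were well apart, by 1.78-fold in signal (log2 fold change -1.20, standard error 0.30, limma adjusted p = 0.0967), and the call was lost without *Mef2c*-deficient replicate 2 (-0.89). It was also lost with renewed quantile normalization (-0.54), cyclic loess (-0.28) and housekeeping centring (-0.45), and held in 10 of 16 settings. *Ube2d3* showed the same separation with a smaller fold, at 38353 and 31785 in *Mef2c*-deficient and 69835, 59444 and 61818 in control cells. Its unadjusted p was under 0.05, but at -0.86 (standard error 0.25) it did not reach a fold of 2, and it was at 0.047 after cyclic loess. *Ube2e1* had 20289.6 and 10878 in *Mef2c*-deficient, against 28627, 25887 and 34922 in control cells, again with no overlap. It was just short of the fold threshold at -0.99 (standard error 0.37) and passed without *Mef2c*-deficient replicate 1 (-1.44). *Ube2d1* and *Ube2e3* did not pass, and control replicate 3 was high in both. *Ube2d1* had 2037 and 9526 in *Mef2c*-deficient and 4425, 5334 and 17656 in control cells, with the groups overlapping. *Ube2e3* had 7089 and 3479, against 9018, 8466 and 31971 (-1.44), without overlap, and control replicate 3 was at 3.62-fold and 3.66-fold the mean of the other controls in these genes. Without *Mef2c*-deficient replicate 1 the log2 fold change of *Ube2d1*, -0.76, changed sign and was 0.35. *Ube2d2b* was listed near the bottom of the range, at 129 and 9.60 in *Mef2c*-deficient and 14.1, 14.1 and 14.4 in control cells. *Mef2c*-deficient replicate 1 alone was high and made up its log2 fold change of 1.31 (standard error 1.10), which was -0.57 without that array and passed at 3.18 without the other. The *Ube2d* genes are close relatives, and how far their probes tell them apart was not tested.

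Of 7 genes of degradative chains, endoplasmic reticulum-associated degradation (ERAD) and cullin-RING ligases, *Ube2g2* alone was lower, where 16.7% of all genes were. It encodes an ERAD enzyme and had 5965 and 5613 in *Mef2c*-deficient, against 9708, 9093 and 17764 in control pro-B cells. The *Mef2c*-deficient arrays were close together and control replicate 3 was high. At -1.01 (standard error 0.38, limma adjusted p = 0.15) it only just reached the fold threshold. It lost the call with any 1 array left out, at -1.14, -1.18 and -0.70 without control replicates 1, 2 and 3 and at -1.05 and -0.96 without *Mef2c*-deficient replicates 1 and 2, and it was at 0.019 after cyclic loess. *Ube2j2*, a membrane-anchored ERAD enzyme, had the lowest log2 fold change of the 32, -2.16, but did not pass (standard error 1.07). It had 1346 and 112 in *Mef2c*-deficient and 1472, 1586 and 2248 in control cells, so that replicate 2 alone was low and replicate 1 lay just under the controls, and it passed without replicate 1 (-3.95). *Ube2g1* showed the reverse, with 998 and 3332 in *Mef2c*-deficient, against 3686, 3067 and 4024 in control cells, and passed without replicate 2 (-1.84). *Ube2k*, at 172 and 106 in *Mef2c*-deficient and 223, 221 and 331 in control cells, missed the p threshold at -0.91 and passed without *Mef2c*-deficient replicate 1 (-1.26). *Ube2h*, a partner of the CTLH ligase, had 2890.1 and 3733 in *Mef2c*-deficient and 2111, 20948 and 8642 in control cells, with control replicate 1 the lowest array and control replicate 2 the highest. It did not pass at -1.14 but passed without control replicate 1 (-2.03). *Ube2j1*, also of ERAD, and *Ube2r2*, a close relative of CDC34, had overlapping groups and log2 fold changes of -0.66 and -0.71, with control replicate 3 at 2.42-fold and 2.50-fold the mean of the other controls.

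Of the E2 enzymes of other modifiers, *Ube2f*, which transfers NEDD8 to cullin 5, was lower. It had 997 and 535 in *Mef2c*-deficient, against 2282, 2890.1 and 2168 in control pro-B cells, and no *Mef2c*-deficient value came within 2-fold of a control value. The fall was 3.32-fold (log2 fold change -1.73, standard error 0.37, limma adjusted p = 0.0907), and of 16 settings housekeeping centring alone ended the call (-0.99). *Ube2l6*, the interferon-induced enzyme that conjugates ISG15, did not pass at -2.10 (standard error 0.88). It had 66.4 and 223 in *Mef2c*-deficient and 360.2, 296 and 1342 in control cells, and control replicate 3 was at 4.09-fold the mean of the other controls. The groups did not overlap, but each spread widely.

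Of the 7 large and atypical enzymes 4 were lower, against 16.7% of all genes, and none was higher. *Ube2z*, which takes ubiquitin or FAT10 from the E1 enzyme UBA6, had 80.7 and 94.5 in *Mef2c*-deficient, against 202, 259 and 254 in control pro-B cells. It had the smallest p of the 32 (log2 fold change -1.44, standard error 0.26, limma adjusted p = 0.0897) and kept its call in 13 of 15 settings, losing it when centred on housekeeping genes (-0.70) and when a 2-fold signal difference was required. Both *Mef2c*-deficient values were below the median of their arrays. *Ube2o*, a very large enzyme with both E2 and E3 activity that clears unassembled proteins, had 700.3 and 200.1 in *Mef2c*-deficient and 1204, 1844 and 1595 in control cells. It fell at -2.03 (standard error 0.60, limma adjusted p = 0.111), with replicate 2 below its array median, and the call was lost without control replicate 2 (-1.89) or control replicate 3 (-1.99), with housekeeping centring (-1.28) and with the unpaired test of each gene alone, and held in 11 of 16 settings. *Ube2q1* had 1627 and 718, against 2880.2, 2352 and 3044, and *Ube2q2* had 319 and 344, against 747, 747 and 1373. *Ube2q1* fell at -1.34 and *Ube2q2* at -1.47 (standard errors 0.42 and 0.37, limma adjusted p = 0.12 and 0.0981), and in both genes the groups were clear of each other. The call of *Ube2q1* was lost without control replicate 1 (-1.31), 2 (-1.45) or 3 (-1.27) or *Mef2c*-deficient replicate 2 (-0.75), and that of *Ube2q2* without *Mef2c*-deficient replicate 1 (-1.41) or 2 (-1.52). Rescaling ended the call of *Ube2q1* too, at -0.62 with renewed quantile normalization, -0.56 with cyclic loess and -0.60 with housekeeping centring, and that of *Ube2q2* with housekeeping centring (-0.72). They held in 6 and 12 of 16 settings. In *Ube2ql1* and *Ube2u* both *Mef2c*-deficient arrays were above all controls. *Ube2ql1* had 2443 and 1028 in *Mef2c*-deficient, against 769, 936 and 803 in control cells, with replicate 1 by far the highest. It did not pass at 0.93 (standard error 0.43) but did without replicate 2 (1.55), with renewed quantile normalization (1.56), after cyclic loess (1.49) and with housekeeping centring (1.67). *Ube2u*, at 96.5 and 107 against 73.9, 55.1 and 73.9, was below the array median on all 5 arrays and did not pass at 0.60. *Ube2cbp* had overlapping groups (-0.44), and the pseudogene *Ube2d-ps* had 208 and 186 in *Mef2c*-deficient, against 297, 407 and 1313 in control cells (-1.46), with control replicate 3 at 3.73-fold the mean of the other controls.

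**Figure D3:**
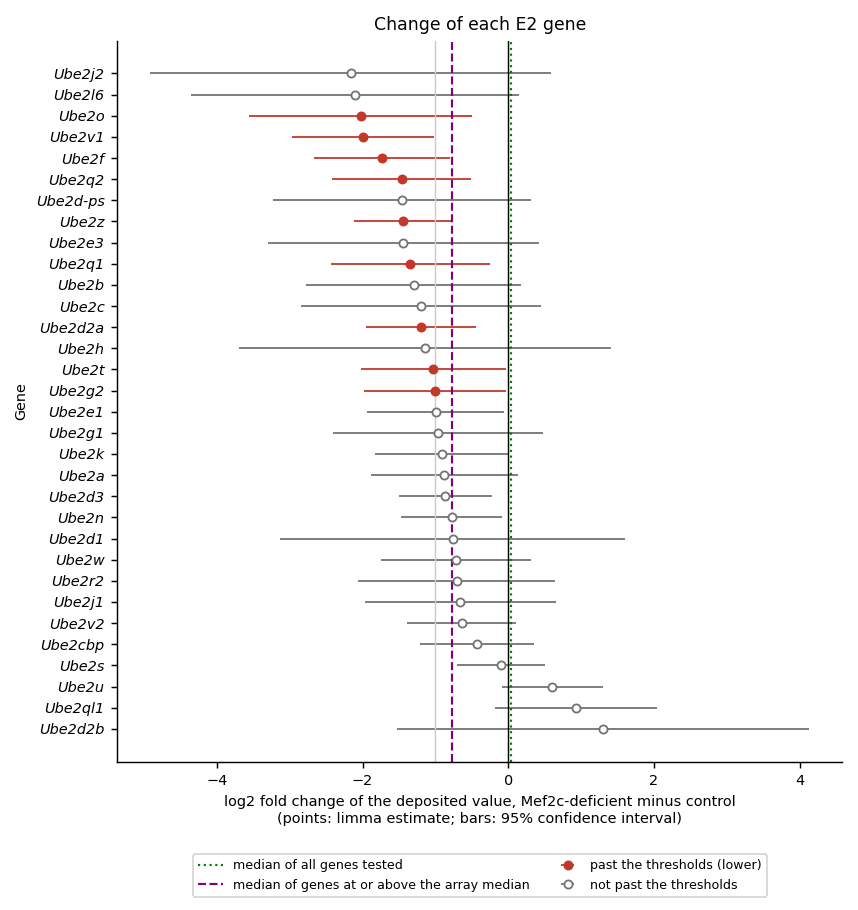
Log2 fold change of the deposited value of each E2 gene, Mef2c-deficient minus control (points), with its 95% confidence interval from limma (bars). Red points passed the thresholds and open points did not. The 9 genes that passed lie between -2.03 and -1.01, and the dotted and dashed lines mark the median of all genes (0.04) and of the genes at or above the array median (-0.77).

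Arrays of a group also differed among themselves. In 20 of 32 E2 genes (62.5%) *Mef2c*-deficient replicate 2 was below replicate 1, against 59.1% of all genes, and the median deviation of the E2 genes from their mean over the 5 arrays was -0.37 on replicate 1 and -0.79 on replicate 2, against 0.19 to 0.66 on the control arrays. Control replicate 3 was at least 2-fold above the mean of the other controls in 6 of 32 E2 genes (*Ube2d1*, *Ube2d-ps*, *Ube2e3*, *Ube2j1*, *Ube2l6* and *Ube2r2*), where 9.62% of all genes were. None of these 6 passed. Control replicates 1 and 2 had identical values in 2916 of 17325 genes, *Ube2q2* among them, and the effect of such ties on the spread was not tested.

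Elsewhere in the pathway, 113 measured genes in 8 lists of E1 enzymes, modifiers, E2-like proteins, E3 partners and deubiquitinases included 47 that were lower and 5 that were higher, against 16.7% and 9.65% of all genes, and these lists were not matched for brightness. Of 8 E1 enzymes 5 were lower and 1 was higher. *Uba7*, the E1 of ISG15, had 1038 and 824 in *Mef2c*-deficient and 2991, 2547 and 4240.1 in control pro-B cells (log2 fold change -1.78, standard error 0.33, limma adjusted p = 0.0897). *Sae1*, a subunit of the SUMO E1, had 9909 and 3414, against 38360.2, 28016 and 39550.1 (log2 fold change -2.59, standard error 0.52). *Nae1*, which with UBA3 forms the E1 of NEDD8, had 1141 and 2203, against 4877, 4004 and 4649.8 (log2 fold change -1.503, standard error 0.36), and all 3 E1 genes were clear of the controls. *Uba3* and *Uba6*, the E1 upstream of UBE2Z, chosen after their values were seen, also fell, at -1.22 and -1.28. *Atg7*, the E1 of autophagy, rose by 1.56, and it was below the array median on control replicates 1 and 3. *Nedd8* itself did not pass at -0.77. Of 12 ubiquitin and ubiquitin-like genes *Sumo3* (-1.81) and the autophagy modifiers *Gabarapl1* (-2.28) and *Gabarapl2* (-1.17) were lower. Among 8 E2-like genes with other symbols 4 were lower, namely *Cdc34*, the E2 of SCF ligases, the variant *Uevld* (-1.53), *Ufc1* (-1.34), the E2 of UFM1, and *Atg3* (-1.18), that of autophagy. *Cdc34* had 5021 and 4745 in *Mef2c*-deficient, against 12516, 14304 and 12253 in control cells, with both groups tight and far apart (log2 fold change -1.41, standard error 0.24, limma adjusted p = 0.0895).

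E3 partners were lower in part. For the counts in this paragraph, 16.7% of all genes were lower and 9.65% were higher. Among genes at or above the array median 27.4% were lower and 4.4% were higher. Of 13 APC/C genes 3 were lower, *Cdc26* (-1.05), *Anapc1* (-3.05) and *Cdc23* (-1.16), and none was higher, while *Cdc20*, its mitotic activator, did not pass at -0.60. Of 15 partners in DNA damage 6 were lower and 2 were higher. *Rad18*, the ligase that works with UBE2A and UBE2B on PCNA, had 3372 and 1209 in *Mef2c*-deficient and 8030.0, 7743 and 8034 in control pro-B cells, where the 3 controls lay close together and both *Mef2c*-deficient arrays were far below (log2 fold change -1.97, standard error 0.48, limma adjusted p = 0.0959). *Huwe1*, a large HECT ligase, and *Brca1* fell at -2.23 and -1.29, and *Chfr*, a mitotic checkpoint ligase, rose by 1.60. *Rnf8*, which recruits UBE2N to breaks, did not pass at -0.93, nor did *Fancl*, the partner of UBE2T, at -0.48. Of 15 cullin-RING genes 10 were lower, among them *Cul4b* (-1.81), *Cul3* (-1.38) and the exchange factor *Cand1* (-1.49), and 2 were higher, among them the F-box gene *Fbxw11* (2.90), which was below the array median on 4 of 5 arrays. *Cul5*, the substrate of UBE2F and chosen after its values were seen, had 1565 and 776 in *Mef2c*-deficient, against 3220.1, 3389 and 3322 in control cells (-1.59). Of 13 partners in SUMO, ISG15, ERAD and parkin ligation 6 were lower, with *Nedd4* at -2.54 and the SUMO ligases *Pias4* and *Pias2* at -1.35 and -2.45. Both *Mef2c*-deficient values of *Pias2* were below the median of their arrays. Of 29 deubiquitinases 10 were lower, with *Uchl5* and *Psmd14*, of the proteasome, at -1.59 and -1.26 and the SUMO protease *Senp1* at -2.78.

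**Figure D4:**
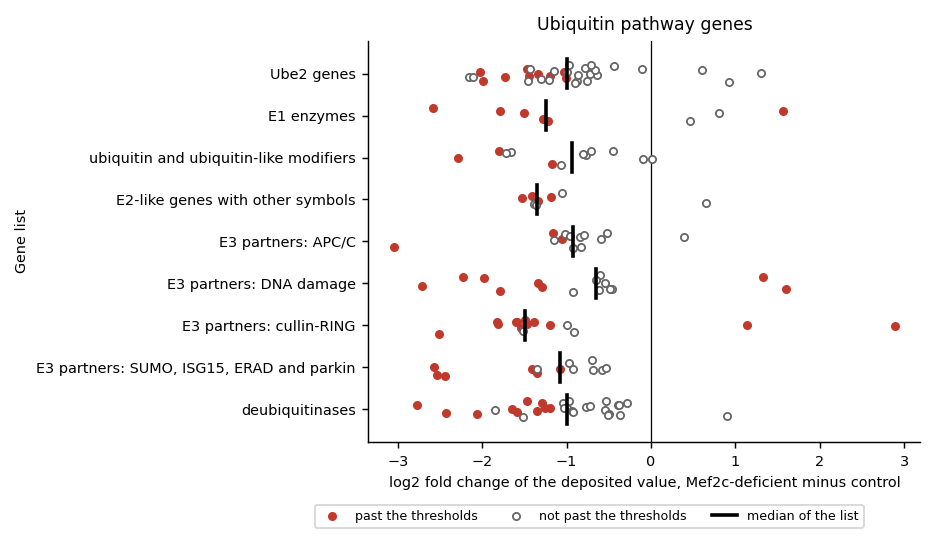
Log2 fold change of the deposited value, Mef2c-deficient minus control (horizontal axis), of each measured gene (points) in the E2 genes and 8 other lists of the ubiquitin pathway (rows). Red points passed the thresholds, open points did not, and black bars are medians, which lie between -1.49 for the cullin-RING genes and -0.65 for the DNA damage partners.

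The pathway counts too depended on scaling and on single arrays. Of the 113 genes, 18 were lower with renewed quantile normalization, 16 with cyclic loess and 14 when centred on housekeeping genes. The 10 lower cullin-RING genes became 0, 0 and 2 in these settings. Without control replicate 1 no APC/C gene was lower, and it was 1 without control replicate 3 and 5 without either *Mef2c*-deficient replicate 1 or 2. In the SUMO, ISG15, ERAD and parkin list 1, 2 and 3 genes were lower without control replicates 1, 2 and 3 and 3 without *Mef2c*-deficient replicate 2. Without *Mef2c*-deficient replicate 1 the count was 6 for the modifiers, and without replicate 2 it was 3 for the E1 enzymes and 6 for the deubiquitinases, with 2 others then higher. Without control replicate 2 or 3, 2 E2-like genes were lower. Of the higher genes, 1 DNA damage partner in place of 2 was left without any 1 control or without *Mef2c*-deficient replicate 2, 1 cullin-RING gene without control replicate 2 or 3 or either *Mef2c*-deficient replicate, and no E1 enzyme without *Mef2c*-deficient replicate 1.

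**Figure D5:**
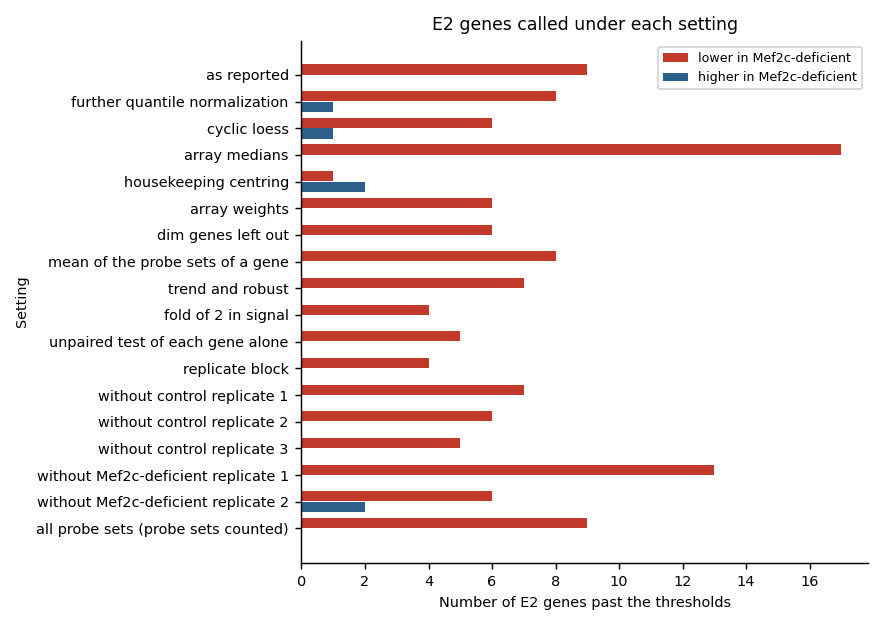
Number of E2 genes lower (red) and higher (blue) in Mef2c-deficient pro-B cells under each setting (rows), as reported at the top. The number lower ran from 1 with housekeeping centring to 17 when centred on array medians.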

How the data were processed

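RNA of sorted pro-B cells was measured on 1-colour Affymetrix arrays, 2 of Mef2c-deficient and 3 of control mice. The deposited values were intensities that the authors had made with RMA (background correction, quantile normalization and probe set summary), on a linear scale. Their natural logs run from 1.15 to 14.7, the range of log2 RMA values, so the deposited values appear to be e raised to those, but the sources used here do not state this. No build, read depth or background is attached, and the number of arrays limits the precision.

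Of 23835 probe sets, 17623 had 1 gene symbol in the platform annotation, 516 had several and 5696 had none listed. The probe set with the highest mean was kept for each of 17325 genes. The log2 of each value was tested with limma 3.58.1 (lmFit, eBayes, R 4.3.3) over all genes, with Benjamini-Hochberg adjustment. Genes were called at a fold of 2 in deposited value and an unadjusted p of 0.05. Limma is the tool that the study names for its arrays, and an unpaired test of each gene alone was run as an alternative.

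All E2 genes were accounted for. In each pathway list the genes named were up to 4 of those past the thresholds with the smallest p, and others are marked as chosen after their values were seen or were named as partners of an E2 enzyme. The members and lists were chosen with earlier results of these data known. The fit was tested on simulated data. Alternatives were other scalings, array weights, a filter on dim genes, other probe set rules, trended and robust variances, a fold of 2 in signal, a replicate block and leaving out each array.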

Additional observations from a re-analysis of the deposited data

How the results depend on the processing

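Scaling moved these results most, and the cause was not tested. The deposited values were not equally distributed over the arrays. Array medians were 238 and 204 on Mef2c-deficient replicates 1 and 2, against 188, 193 and 182 on control replicates 1, 2 and 3. Lower quartiles were 65.4 and 52.8, against 42.0, 42.9 and 38.7. The part of these differences in the counts below was not tested. E2 genes lower, E2 genes higher, pathway genes lower, and all genes lower and higher numbered 9, 0, 47, 2897 and 1671 as reported. They numbered 8, 1, 18, 1481 and 1376 after a further quantile normalization, 6, 1, 16, 1447 and 1171 after cyclic loess, 17, 0, 67, 4169 and 1071 with arrays centred on their medians, and 1, 2, 14, 771 and 6952 with housekeeping centring. The share of calls that were lower was 63.4% as reported, 51.8%, 55.3%, 79.6% and 9.98% under these 4 scalings in turn, and 44.9% without Mef2c-deficient replicate 2. The E2 median log2 fold change was -0.41, -0.28 and -0.25 after quantile normalization, cyclic loess and housekeeping centring. With housekeeping centring limma gave adjusted p under 0.05 for 3 of 32 E2 genes, *Ube2ql1* and *Ube2u* (higher) and *Ube2v1*, and for 5916 of 17325 genes. The log2 fold change of *Mef2c* was then -0.59, and it was -0.43 after quantile normalization and -0.32 after cyclic loess.

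Signs reversed after quantile normalization in *Ube2d1* (0.057), *Ube2j1* (0.22), *Ube2s* (0.34), *Ube2v2* (0.29) and *Ube2w* (0.14). After cyclic loess they did so in *Ube2a* (0.055), *Ube2d1* (0.25), *Ube2d3* (0.047), *Ube2g2* (0.019), *Ube2j1* (0.31), *Ube2n* (0.16), *Ube2s* (0.75), *Ube2v2* (0.38) and *Ube2w* (0.21), with housekeeping centring in *Ube2cbp* (0.31), *Ube2j1* (0.083), *Ube2r2* (0.035), *Ube2s* (0.65), *Ube2v2* (0.10) and *Ube2w* (0.027), and without Mef2c-deficient replicate 1 in *Ube2d1* (0.35) and *Ube2d2b* (-0.57), which ran from -1.87 to 0.35 and from -0.57 to 3.18 as each array was left out.

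Other settings kept the sign of every E2 gene they tested. A fold of 2 in signal gave 4 E2 genes, 28 pathway genes and 1835 genes lower and 752 higher. The unpaired test of each gene alone gave 5, 28, 1730 and 956, array weights 1028 higher genes and leaving out dim genes 435. Leaving out 1 array gave 5 to 13 E2 genes lower, 0 to 2 higher, 30 to 53 pathway genes lower, 1938 to 3237 genes lower and 967 to 3014 higher. An adjusted p under 0.05 was then reached by 8 of 32 E2 genes and 1680 of 17325 genes without Mef2c-deficient replicate 1, and by 4 and 1894 without replicate 2, each time with 1 array standing for its group and assumed to vary like the controls.

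The groups share replicate numbers 1 and 2, and deviations from the group means correlated at 0.12 and -0.01. The deviations of the 2 Mef2c-deficient arrays are exact opposites, so these correlations cannot show whether the numbers pair the arrays. With the replicate number as a block 4 E2 genes, 27 pathway genes and 1941 genes were lower and 715 were higher, and the E2 median was -0.88. Control replicate 3 has no partner and adds nothing to the fold in that fit.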

Other observations

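The gene *Ube2l3*, which encodes the main E2 partner of parkin and of HHARI-type ligases, had no probe set of its own, since the 2 probe sets that list it also list 4 predicted genes. The brighter of these had 67071 and 85001 on the Mef2c-deficient arrays, against 106492, 120205 and 101869 on the control arrays. The groups did not overlap, and the log2 difference was -0.53. The other had 2459 and 4836, against 4836, 4836 and 5994, and there Mef2c-deficient replicate 2 equalled 2 of the controls. Neither entered a test.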
